A study of Mus musculus with 20 samples.

Results

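Amelotin (Amtn) and the enamel protein genes that lie beside it on mouse chromosome 5, Odam, Ambn and Enam, were examined in sorted mammary epithelial cells. These 4 genes were chosen by symbol from 19937 genes with a named probe set, and each was represented by 1 probe set. Amtn entered because earlier work on these arrays had shown it raised in luminal cells that express mutant PIK3CA. Its values in the mutant comparisons are therefore a description and carry no test, while the other 3 genes entered by family and position and were tested.

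The 20 arrays came from mice of a mixed FVB/CD-1 background, and mice of both genotypes are labelled as tamoxifen-treated, with cells collected 4 weeks later. Controls carried K8-creERT2 alone, and mutants were K8-creERT2/PIK3CA H1047R mice, in which a Cre driven by the keratin 8 promoter switches on a mutant PI3K catalytic subunit and cells that express it carry GFP. After removal of CD45-positive cells, the basal gate took cells low in CD24 without Sca1, and those high in CD24 were split by Sca1 into the luminal gates. Controls gave 3 arrays per gate, all of GFP-negative cells. Mutants gave GFP-negative basal cells and GFP-positive cells of all gates, with 3 arrays per group except Sca1-positive luminal cells, which had 2. Each array held amplified RNA of 2000 cells from pooled glands of 2 to 3 mice, so the luminal comparisons set GFP-positive cells of mutants against GFP-negative cells of controls and do not separate the mutant from the sort for GFP.

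Enamel is laid down by ameloblasts, epithelial cells that secrete a protein matrix and later remove it as mineral grows. Ameloblastin (Ambn) and enamelin (Enam) belong to the secreted matrix of the forming layer, whereas amelotin and the odontogenic ameloblast-associated protein (Odam) are made by maturing ameloblasts and by the junctional epithelium that seals the gum to the tooth. All 4 are secretory calcium-binding phosphoproteins, a family that arose by gene duplication and also includes the caseins of milk, several of which lie in the same cluster.

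In the RefSeq gene order (GRCm38.p6), Amtn, Ambn and Enam followed each other with 0 protein-coding genes between them, and Odam lay before Amtn, separated from it by 7 protein-coding genes that include the casein gene Csn3. The array files name no genome build, so positions here belong to the RefSeq table only. The 250 bases before each RefSeq start are shown because the members' upstream sequences share letters although their measured levels did not run together. All are on the plus strand, 5′ to 3′, at chr5:88375858-88376107 (Amtn), chr5:87884760-87885009 (Odam), chr5:88455741-88455990 (Ambn) and chr5:88487725-88487974 (Enam). Capitals mark TGATTGG, an inverted CAAT box, and TTAAAT, both on the gene's strand and not overlapping each other.
Amtn: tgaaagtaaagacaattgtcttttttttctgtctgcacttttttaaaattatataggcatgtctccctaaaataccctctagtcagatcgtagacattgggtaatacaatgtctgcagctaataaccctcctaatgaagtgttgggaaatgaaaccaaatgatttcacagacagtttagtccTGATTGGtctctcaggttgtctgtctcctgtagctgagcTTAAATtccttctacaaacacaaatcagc
Odam: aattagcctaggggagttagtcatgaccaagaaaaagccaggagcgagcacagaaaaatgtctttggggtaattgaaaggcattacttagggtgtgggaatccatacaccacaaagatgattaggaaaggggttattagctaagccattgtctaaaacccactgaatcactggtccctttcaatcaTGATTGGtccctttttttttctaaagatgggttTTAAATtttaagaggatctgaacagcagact
Ambn: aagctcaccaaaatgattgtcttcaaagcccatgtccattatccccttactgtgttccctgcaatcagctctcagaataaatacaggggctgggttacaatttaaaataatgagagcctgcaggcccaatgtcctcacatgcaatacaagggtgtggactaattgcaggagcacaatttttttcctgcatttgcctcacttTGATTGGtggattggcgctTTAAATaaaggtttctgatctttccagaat
Enam: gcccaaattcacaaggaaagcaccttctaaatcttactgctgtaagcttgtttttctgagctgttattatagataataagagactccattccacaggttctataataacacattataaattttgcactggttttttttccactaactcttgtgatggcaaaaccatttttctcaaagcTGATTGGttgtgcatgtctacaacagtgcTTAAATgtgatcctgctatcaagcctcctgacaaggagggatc

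The capitals fell in the same order in all 4 members. TGATTGG began 68 bases before the start in Amtn, 64 in Odam, 49 in Ambn and 72 in Enam, and TTAAAT began 29, 31, 30 and 43 bases before it. On the gene's strand TGATTGG was present in 3.64% of the 32851 RefSeq promoter windows of this length and TTAAAT in 6.89%. TGATTGG followed by TTAAAT was present in 21 windows (0.0639%), of 21 genes that include these 4, the bone phosphoprotein gene Spp1, Dlx2 and Runx1. These letters were picked after reading the members' sequences, so the low share describes the choice and is no test. The amelogenin gene Amelx held TGATTGG 60 bases before its start and no TTAAAT. On either strand, the STAT-type motif TTCNNNGAA (7.02% of windows) was found in the casein genes Csn1s1 and Csn2 but not in Csn1s2a, and in 0 of the 4 members, and the RUNX-type motif TGTGGT (14% of windows) in Odam alone of the 4 and in Csn2. The FOXO-type TGTTTAC (3.17%) and the C/EBP-type TTGCNNAA (9.56%) were found in none of the 4. A match to letters is not evidence of binding, and a missing match says only that the letters are not in this window.

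Levels are the authors' deposited log2 probe set values, on which a step of 1 is a doubling. Array medians lay between 3.66 and 3.80. As a guide to the floor, 1027 olfactory receptor genes, which are not known as mammary genes, had group means with a 5th percentile between 2.62 and 2.72 and a 95th percentile between 3.54 and 3.64. Probe sets differ in brightness, so this band is a guide and not a detection limit.

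Amtn was high in the mutant luminal groups. In GFP-positive Sca1-negative luminal cells the 3 mutant arrays read 9.87, 10.36 and 9.85, and the 3 control arrays of that gate read 4.89, 4.06 and 3.89. The means were 10.03 ± 0.29 (SD, n = 3) and 4.28 ± 0.53 (SD, n = 3), a log2 difference of 5.75 or 53.7-fold, with no overlap. Groups did not overlap in this direction for 9.12% of all genes in this comparison. In Sca1-positive luminal cells the mutant arrays read 8.18 and 7.11 against 3.67, 3.56 and 3.57 in controls. These means were 7.64 ± 0.76 (SD, n = 2) and 3.60 ± 0.06 (SD, n = 3), a difference of 4.04 or 16.5-fold, again without overlap (10.9% of all genes in this direction). The mutant-minus-control difference was smaller in the Sca1-positive gate by 1.71 on the log2 scale. In bulk sorted cells, more cells of one kind and more RNA per cell cannot be told apart.

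In the basal gate the Amtn differences were small. GFP-positive basal cells read 4.73, 4.09 and 4.01, GFP-negative basal cells of the same genotype 3.42, 3.38 and 3.58, and control basal cells 3.37, 3.35 and 3.22. The GFP-positive arrays all lay above both other basal groups. Their mean of 4.28 ± 0.39 (SD, n = 3) exceeded control basal cells (3.31 ± 0.08, SD, n = 3) by 0.96, or 1.95-fold, and GFP-negative basal cells (3.46 ± 0.11, SD, n = 3) by 0.81. Groups did not overlap in these directions for 7.23% and 7.04% of all genes. The GFP-negative basal arrays also lay above the control arrays without overlap (4.9% of all genes), by 0.15, with the closest arrays at 3.38 and 3.37. The luminal marker list (5 of 5 genes measured) had array means of 8.50 to 9.43 in GFP-positive basal cells and 7.96 to 8.66 in control basal cells, with Krt18 and Krt19 called higher by limma. Of the 6 basal markers, 2 were called lower in that comparison, where 4.23% of all genes were called. These were the smooth muscle myosin gene Myh11 (-0.70) and the oxytocin receptor gene Oxtr (-1.84). The other 4 were not called. From control to GFP-positive cells, means went up for Trp63 (8.67 to 9.17) and Krt5 (10.55 to 10.78). They went down for Acta2 (11.39 to 11.09) and Krt14 (10.49 to 10.14). The part of these marker differences in the Amtn values was not tested.

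**Figure D1:**
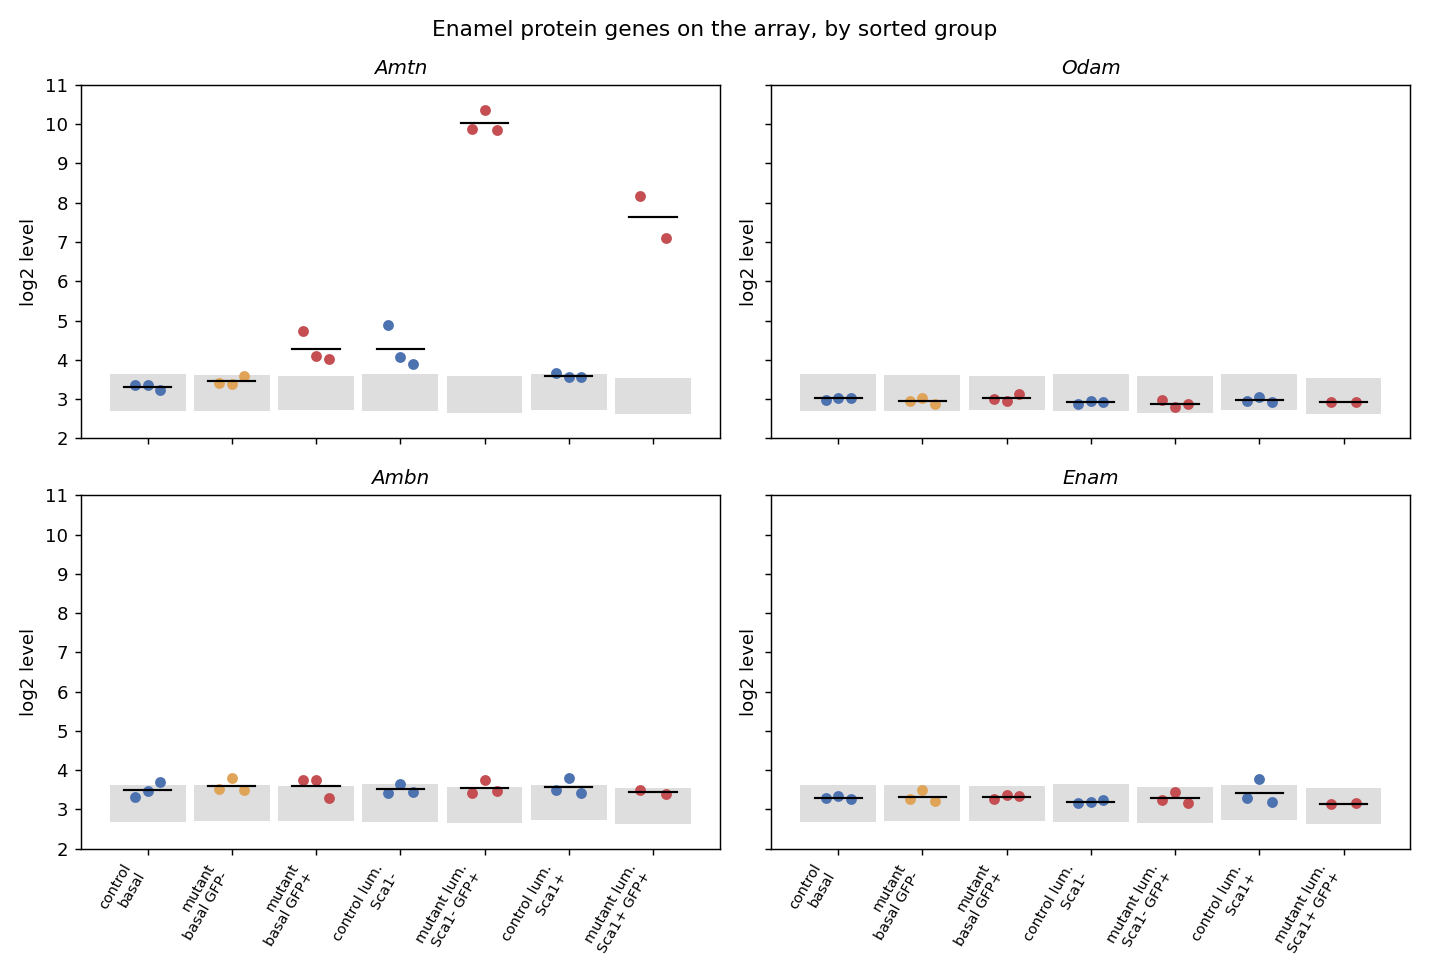
Log2 level (y axis) of Amtn, Odam, Ambn and Enam on each array of the 7 sorted groups (x axis; blue control, orange mutant GFP-negative, red mutant GFP-positive). Points are arrays, black lines group means and grey bands the 5th to 95th percentile of 1027 olfactory receptor genes in that group. Amtn lies at 9.85 to 10.36 and 7.11 to 8.18 in the mutant luminal groups, while Odam, Ambn and Enam stay at or near the grey bands.

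Ordered by group mean, Amtn was highest in mutant Sca1-negative luminal cells (10.03), then in mutant Sca1-positive luminal cells (7.64). Control Sca1-negative luminal and GFP-positive basal cells followed with means of 4.28 each and overlapping arrays. Control Sca1-positive luminal cells (3.60) and GFP-negative basal cells (3.46) overlapped too, and control basal cells (3.31) were lowest. All arrays of the 4 highest groups lay above the 95th percentile of the olfactory receptor genes on the same array. Counted over all 7 groups, 12 of 20 arrays did so. The span between the highest and lowest group mean was 6.71, and 13 of 19937 genes (0.0652%) had a span at least as large, against a median span of 0.43. Amtn was chosen for its rise, so this rank describes the choice.

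Among control cells, Amtn is also given as a description, since the choice of the gene drew on these arrays. Control Sca1-negative luminal arrays (3.89 to 4.89) lay above control basal arrays (3.22 to 3.37), with a difference of means of 0.97. It was 0.66 without control Sca1-negative luminal replicate 1. Control Sca1-positive luminal arrays (3.56 to 3.67) lay above control basal arrays by 0.29 and below control Sca1-negative luminal arrays, with a difference of -0.68. Groups did not overlap in these directions for 12.6%, 12.8% and 6.65% of all genes.

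Odam, nearest to Amtn in where its protein is made in the tooth, stayed low on every array. It ranged from 2.79 to 3.12 over the 20 arrays (median 2.95), and its group means spanned 0.14. Mutant Sca1-negative luminal arrays read 2.98, 2.79 and 2.88 against 2.87, 2.95 and 2.92 in controls, which overlapped. The difference was -0.03 (95% interval -0.19 to 0.13, limma adjusted p = 0.973). In Sca1-positive luminal cells it was -0.05 (-0.23 to 0.13, adjusted p = 0.887). Odam lay above the 95th percentile of the olfactory receptor genes on 0 of 20 arrays.

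Ambn, the next gene after Amtn, ranged from 3.29 to 3.81 (median 3.50) with a span of group means of 0.16. Mutant Sca1-negative luminal arrays read 3.43, 3.74 and 3.46 and control arrays 3.42, 3.66 and 3.45, a difference of 0.04 (95% interval -0.28 to 0.35, limma adjusted p = 0.989). In Sca1-positive luminal cells the difference was -0.12 (-0.47 to 0.23, adjusted p = 0.861). Ambn exceeded the olfactory receptor band on 6 of 20 arrays, which were spread over groups and filled no group.

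Enam, which follows Ambn, ranged from 3.13 to 3.77 (median 3.26) with a span of 0.27. Mutant Sca1-negative luminal arrays read 3.23, 3.44 and 3.17 and control arrays 3.16, 3.20 and 3.23, a difference of 0.09 (95% interval -0.17 to 0.35, limma adjusted p = 0.914). In Sca1-positive luminal cells, mutant arrays at 3.13 and 3.17 lay just below control arrays at 3.29, 3.77 and 3.20, as in 17.7% of all genes. That difference was -0.27 (-0.57 to 0.02, limma adjusted p = 0.595). The array at 3.77 was control replicate 2, which had a narrower spread of values than most arrays (SD over probe sets 1.72, range over arrays 1.71 to 1.88), and without it the difference was -0.10.

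Over 10 comparisons, 30 tests were made of Odam, Ambn and Enam. By limma 0 were called, and 0 had an unadjusted p under 0.05. Called genes made up 9.89%, 12.3% and 0.762% of all genes in the control comparisons (Sca1-negative luminal against basal, Sca1-positive luminal against basal, and Sca1-positive against Sca1-negative luminal cells). They made up 1.9% in mutant against control Sca1-negative luminal cells, 0.226% in Sca1-positive luminal cells, 4.23% in GFP-positive against control basal cells, 0.161% in GFP-negative against control basal cells and 3.25% in GFP-positive against GFP-negative basal cells. In these 5 comparisons the 95% intervals of the 3 genes reached at most 0.42 upward and -0.57 downward, so differences of the size seen for Amtn in luminal cells lay outside them. The GFP-positive basal differences from control were 0.00 for Odam, 0.09 for Ambn and 0.02 for Enam. Whether mutant effects themselves differed between Sca1-positive and Sca1-negative luminal cells (0.14% of genes called), or between GFP-positive basal and Sca1-negative luminal cells (1.55%), was also not called for any of the 3. Members lie on 1 chromosome and share arrays, so they are not replicates of one another.

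Genes along the same stretch of chromosome were then read in order. Of the 12 measured genes before Odam and the 12 after Enam, 0 of 24 were called in mutant Sca1-negative luminal cells (5 had an unadjusted p under 0.05 by limma) and 0 of 24 in Sca1-positive luminal cells (4 under 0.05). Over all genes 1.9% and 0.226% were called in these gates, so 0 calls among so few genes say little. The median differences of these 24 genes were 0.01 and -0.10, against -0.03 and -0.05 over all genes. Between Odam and Amtn 7 genes were measured, 6 of the 7 protein-coding genes named above and BC051076, which is not among those. By limma 0 of these 7 measured genes were called in either gate, and 0 had an unadjusted p under 0.05. The immediate measured neighbours of Amtn were Prol1 (a proline-rich secreted protein gene) before it, with differences of 0.03 and -0.11 in the luminal gates, and Ambn after it. Beyond Enam, the immunoglobulin joining chain gene Jchain, a plasma cell product, differed by -0.09 and -0.18.

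**Figure D2:**
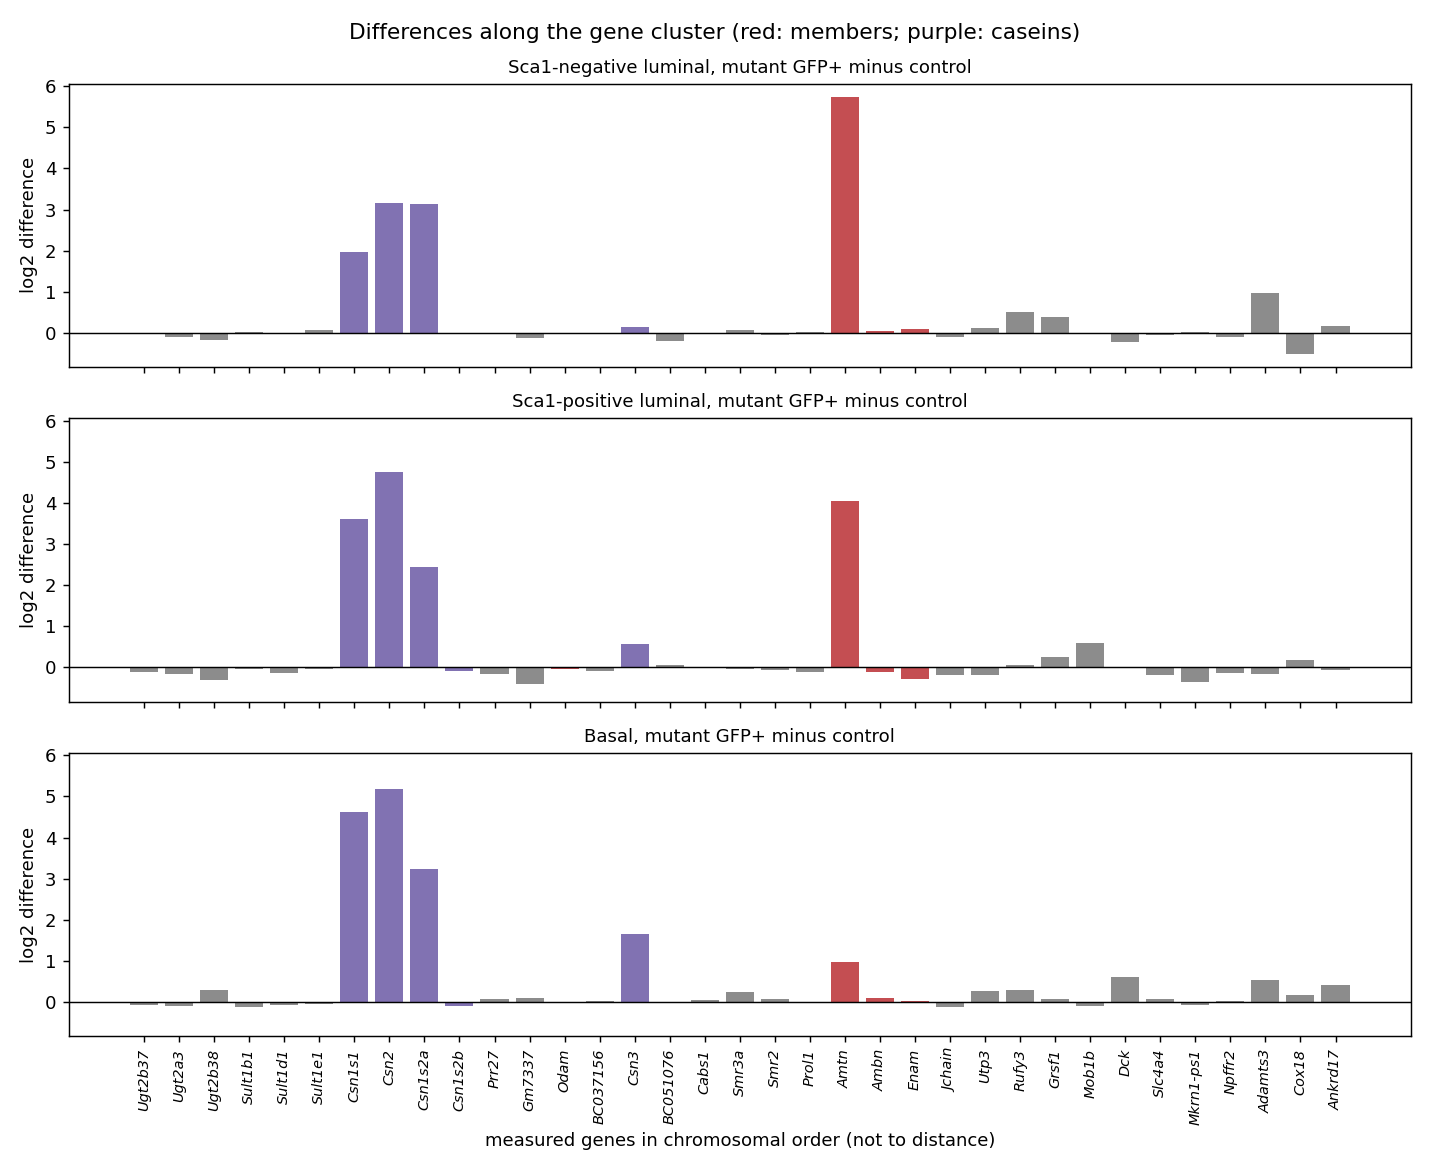
Log2 difference between GFP-positive mutant and control cells (y axis) for 35 measured genes in chromosomal order (x axis, not drawn to distance) in the 3 gates; bars are differences of group means. Amtn stands alone among its direct neighbours at 5.75 and 4.04 in the luminal gates and 0.96 in the basal gate, and the other tall bars are casein genes.

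The caseins, the milk relatives in this cluster, were also read gene by gene. Csn1s1, which encodes an alpha-casein, read 10.40, 10.41 and 9.74 in GFP-positive basal cells against 7.06, 5.63 and 4.02 in control basal cells and rose by 4.61 (limma adjusted p = 0.00157). Csn2, the beta-casein gene, lay between 10.92 and 11.13 against 8.08, 5.35 and 4.08 and rose by 5.18 (limma adjusted p = 0.0116). The Csn2 call was lost without control basal replicate 3 and in a fit of only these 6 arrays (adjusted p up to 0.0703). In that comparison Amtn differed by 0.96. In the Sca1-negative gate Csn1s1 differed by 1.98 and Csn2 by 3.17 (adjusted p = 0.278 and 0.222), and by 3.62 and 4.75 in Sca1-positive cells (0.112 and 0.176), none called. Control arrays varied widely, with Csn2 at 7.12, 10.37 and 8.0 in control Sca1-negative luminal cells, where Amtn read 4.89, 4.06 and 3.89. In control Sca1-positive luminal cells Csn2 read 5.73, 8.60 and 4.49 and Amtn 3.67, 3.56 and 3.57. In neither control luminal group was the array highest in Csn2 also highest in Amtn. Control basal arrays ran in the same order for both genes, with Amtn at 3.37, 3.35 and 3.22. A link between the 2 genes was not tested. Csn3, the kappa-casein gene between Odam and Amtn, was high in all groups (means 8.36 to 10.23) and differed by 0.14 in Sca1-negative luminal cells (limma adjusted p = 0.984). In GFP-positive basal cells Csn3 differed by 1.66 (limma adjusted p = 0.0757). Csn1s2a differed by 3.14, 2.44 and 3.24 in the Sca1-negative luminal, Sca1-positive luminal and GFP-positive basal comparisons, none called. By limma's interaction test no casein effect differed between GFP-positive basal and Sca1-negative luminal cells. For Csn1s1 it was 2.64 (adjusted p = 0.35) and for Csn2 2.02 (adjusted p = 0.799).

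The wider family list held 19 genes, of which 17 were measured and Spp1 and Muc10 were not analysed here. It is wider than the phosphoproteins and also holds Jchain, Prol1, Smr2 and Smr3a. These genes and the caseins were also read above by position. In mutant Sca1-negative luminal cells 2 of 17 rose, 0 fell and 15 were not called (median 0.06, all genes -0.03), where 1.9% of all genes were called. Those that rose were Sparc, a collagen-binding matricellular protein from which the family is thought to descend, by 2.32 (limma adjusted p = 0.0038), and its relative Sparcl1 by 2.40 (adjusted p = 0.00366). Both calls were lost when only the arrays of that gate were fitted (adjusted p = 0.11 and 0.0625). Sparcl1 read 5.27, 6.98 and 6.43 in mutant and 3.68, 3.76 and 4.05 in control cells. In Sca1-positive luminal cells, where 0.226% of all genes were called, 1 of 17 rose. This was Sparc, by 2.44 (limma adjusted p = 0.0285), a call lost under 5 of 13 alternatives including leaving out control replicate 1 or 3 or mutant replicate 3 (adjusted p up to 0.392). In GFP-positive basal cells, where 4.23% of all genes were called, 3 of 17 rose, Csn1s1, Csn2 and Sparcl1, the last by 4.92 to 8.89 ± 0.66 (SD, n = 3; limma adjusted p = 1.36e-06). Against GFP-negative basal cells, Sparcl1 (4.75) and Csn1s2a (4.62) rose, and the Csn1s2a call was lost when any 1 of the 6 arrays was left out (adjusted p up to 0.141). The tooth and bone members Amelx, Odaph, Dspp, Dmp1, Ibsp and Mepe were called in none of the 5 mutant comparisons, and Amelx ranged from 3.01 to 3.45 over the arrays. Neither Sparc nor Sparcl1 lies among the genes read around the members. Sparc was highest in basal cells (mean 10.94 in control basal cells), and the basal marker list had array means of 5.33 to 5.61 in mutant and 4.57 to 4.85 in control Sca1-positive luminal cells, with the basal keratin gene Krt5 called higher (2.14, limma adjusted p = 0.00223) and the other 5 not called. In GFP-positive basal cells the fibroblast list had array means of 4.95 to 5.20, against 4.33 to 4.49 in control basal cells. Of its 6 genes 2 rose, the proteoglycan gene Dcn (7.43 to 10.58) and the collagen gene Col1a2 (4.28 to 5.16), while the list median was -0.03. Dcn was also high in control luminal cells (means 10.48 and 11.20). The part of these shifts in the Sparc and Sparcl1 values was not tested.

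**Figure D3:**
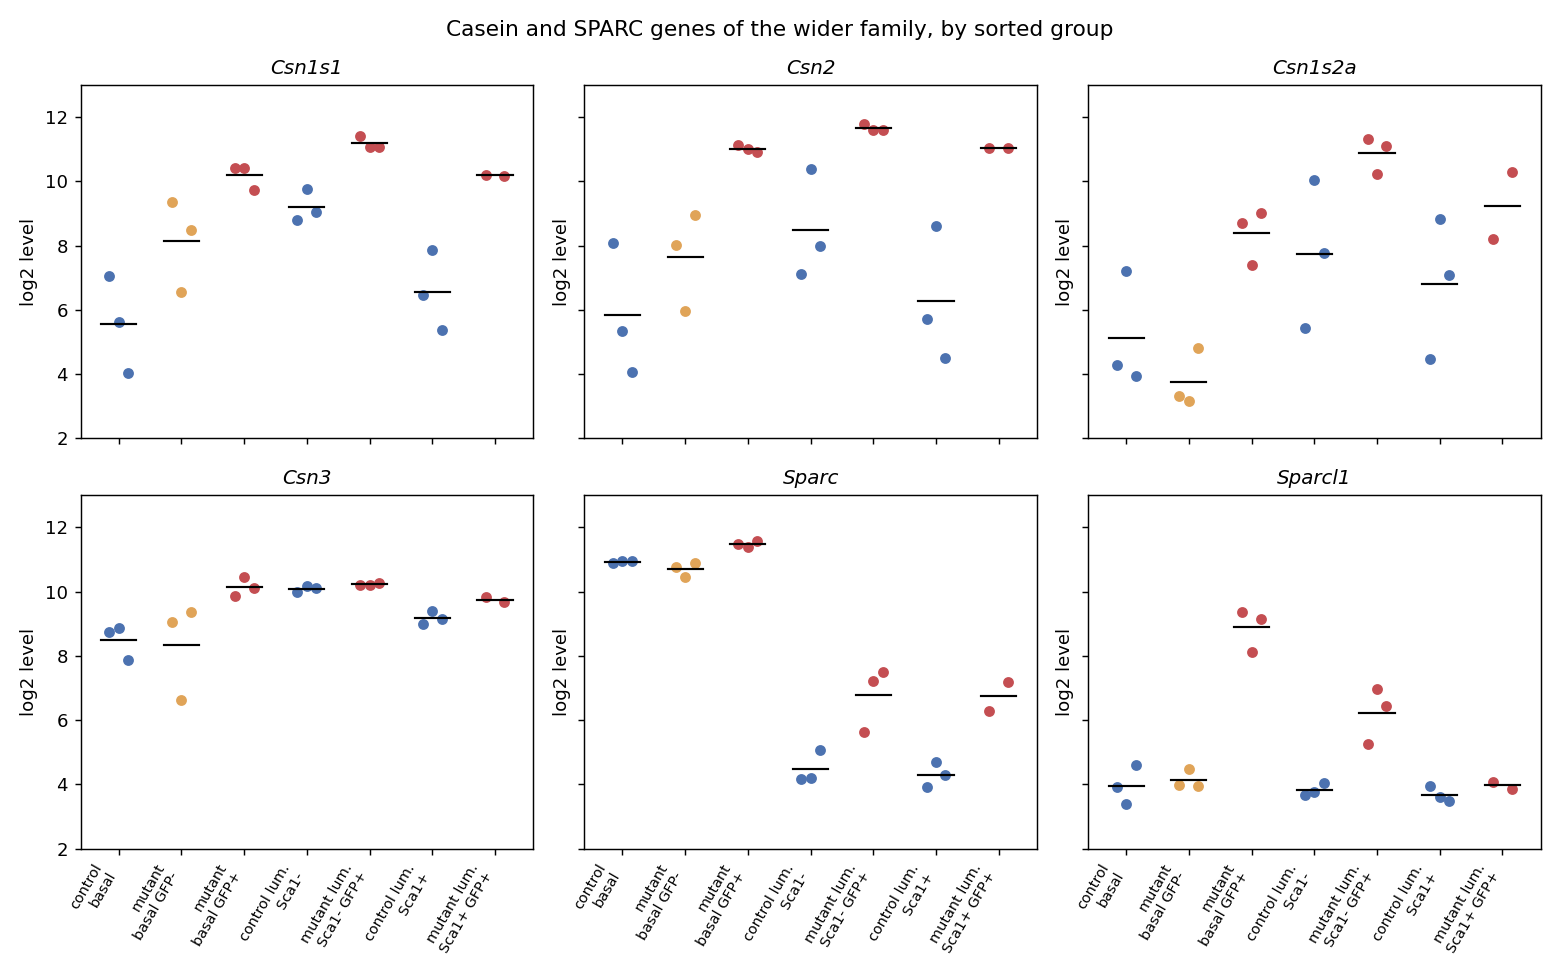
Log2 level (y axis) of 4 casein genes, Sparc and Sparcl1 on each array of the 7 sorted groups (x axis; blue control, orange mutant GFP-negative, red mutant GFP-positive; black lines are group means). Csn1s1 and Csn2 are high in all GFP-positive groups including basal cells, where Csn2 sits at 10.92 to 11.13, and Sparcl1 is highest in GFP-positive basal cells.

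Of 33 listed enamel and junctional epithelium genes, 30 were measured. In mutant Sca1-negative luminal cells 0 rose, 1 fell and 29 were not called, where 1.9% of all genes were called (median -0.03, the same as over all genes). By limma 5 of the 30 had an unadjusted p under 0.05, among them Lamb3, a laminin chain gene, with a difference of 1.15 (adjusted p = 0.0648). The one that fell was Msx2, a homeobox gene active in ameloblasts and in mammary ducts, which fell by 1.63 on the log2 scale, from 6.81 ± 0.14 (SD, n = 3) in controls to 5.18 ± 0.36 (SD, n = 3) in mutants (limma adjusted p = 0.000928). In Sca1-positive luminal cells 0 of 30 were called by limma (0.226% of all genes), with 1 at an unadjusted p under 0.05. Mmp20 and Klk4, the proteases that clear the enamel matrix, differed by -0.03 and -0.26 between mutant and control cells of the Sca1-negative gate (adjusted p = 0.988 and 0.559), and Fam20c, the kinase that phosphorylates these secreted proteins, by 0.05 (adjusted p = 0.979). In GFP-positive basal cells the sodium-calcium exchanger gene Slc24a4 rose by 0.49, from 3.07 to 3.57 ± 0.22 (SD, n = 3; limma adjusted p = 0.00537). Both means lay within the olfactory receptor bands of their groups (95th percentiles 3.63 and 3.60). Runx1, a transcription factor gene, fell in that comparison by 0.91 on the log2 scale (limma adjusted p = 0.0145). The call of Slc24a4 was lost when only these 6 arrays were fitted (adjusted p = 0.207), and that of Runx1 then and without control basal replicate 2 or GFP-positive replicate 2 or 3 (adjusted p up to 0.0671). In control Sca1-negative luminal against control basal cells 4 of 30 were higher and 6 lower, where 9.89% of all genes were called. The largest differences were those of Lama3 (-3.22), the hemidesmosomal collagen gene Col17a1 (-3.21), the enamel-associated gene Tuft1 (2.99), Msx2 (2.63), Lamb3 (-2.41) and Fam83h (1.84). The ameloblast markers (Amelx, Ambn, Enam, Mmp20 and Klk4, 5 of 5 measured) had array means of 3.26 to 3.62 over all groups and 0 called in the luminal comparisons or in GFP-positive basal cells, and 0 of them had an unadjusted p under 0.05 in limma's luminal comparisons.

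Some mammary markers also differed between mutant and control luminal cells, and not in the same way in both gates. The luminal progenitor list (Kit, Elf5, Aldh1a3, Cd14 and Lcn2, 5 of 5 measured) had array means of 9.0 to 9.25 in mutant and 8.16 to 8.50 in control Sca1-negative luminal cells, and of 7.16 to 7.23 and 6.04 to 6.33 in the Sca1-positive gate. In each gate 1 of its 5 genes was called, where 1.9% (Sca1-negative) and 0.226% (Sca1-positive) of all genes were called. Elf5, a transcription factor gene of the alveolar lineage, rose in the Sca1-negative gate (2.23, limma adjusted p = 0.0113). The lipocalin gene Lcn2 rose in the Sca1-positive gate (1.82, limma adjusted p = 0.000857). By limma 3 of the 5 had an unadjusted p under 0.05 in each gate. In the Sca1-negative gate, control and mutant means were 6.61 and 6.85 for Kit and 7.07 and 7.20 for Aldh1a3. They were 9.81 and 10.72 for Cd14 and 11.47 and 12.10 for Lcn2. In the Sca1-positive gate they were 7.59 and 9.17 for Cd14, 4.79 and 5.99 for Elf5, 4.30 and 4.58 for Kit, and 4.75 and 4.90 for Aldh1a3. All 3 measured hormone-sensing genes of 5 listed (Esr1, Pgr and Foxa1) fell in the Sca1-negative gate, with array means of 4.89 to 5.05 in mutant and 6.62 to 7.25 in control cells. In the Sca1-positive gate their array means were 7.79 to 7.86 and 7.36 to 7.93, and 0 of the 3 were called. The part of these shifts in the Amtn values was not tested. Immune markers (6 of 7 measured) had array means of 3.90 to 4.08 in mutant and 3.78 to 3.97 in control Sca1-negative luminal cells, with Ptprc (CD45) between 3.33 and 4.04 over all arrays. In that gate 0 of the 6 were called by limma, and 2 had an unadjusted p under 0.05. Cd68 arrays lay at 6.55 to 7.11 in mutant and 5.35 to 5.99 in control cells. Ptprc, Cd3e, Itgam, Lyz2 and Csf1r had lower means in mutant cells, the last at 3.36 against 3.64. In mutant against control cells of that gate, array means were 3.11 to 3.23 against 3.27 to 3.43 for the endothelial list, 3.19 to 3.29 against 3.30 to 3.38 for the pericyte list and 3.46 to 3.51 against 3.59 to 3.62 for the erythroid list. None of the endothelial, pericyte and erythroid genes was called there by limma, and 0 had an unadjusted p under 0.05. The fibroblast list (4.25 to 4.44 against 4.77 to 4.93) held 1 called gene of 6, Dcn, which went from 10.48 to 7.65, and the other 5 differed by -0.14 to 0.15. Array means overlapped for the immune and adipocyte lists (adipocyte 3.62 to 3.67 against 3.61 to 3.72). The basal list lay at 9.43 to 10.13 in basal groups and 4.57 to 5.64 in luminal groups.

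Genes were ranked by how their 7 group means ran with those of Amtn, among 1187 genes whose group means spanned at least 2. The first was Dynap, a membrane protein gene (Pearson r = 0.9968 over 7 group means), with means of 6.21 ± 0.57 (SD, n = 3) and 5.30 ± 1.79 (SD, n = 2) in the mutant luminal groups and 2.95 to 3.43 in the other 5. Its mutant Sca1-positive arrays lay at 4.03 and 6.57. Next came Elapor1, an endosome and lysosome-associated protein gene (r = 0.9699), and the secreted serine protease gene Klk10 (0.9631). They were followed by Dcxr, a sugar and carbonyl reductase gene (0.9494), Cmas, which activates sialic acid (0.9446), Cox7a1, a respiratory chain subunit gene (0.9446), Abhd5, a lipase activator gene (0.9418), and the milk protein gene Wap (0.9412). All 8 were highest in mutant Sca1-negative luminal cells. Wap departed from Amtn in GFP-positive basal cells, with a mean of 6.58 ± 1.54 (SD, n = 3) against 3.60 ± 0.36 (SD, n = 3) in control basal cells. The genes share arrays and 7 points allow many genes a high r, so these values describe likeness only.

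**Figure D4:**
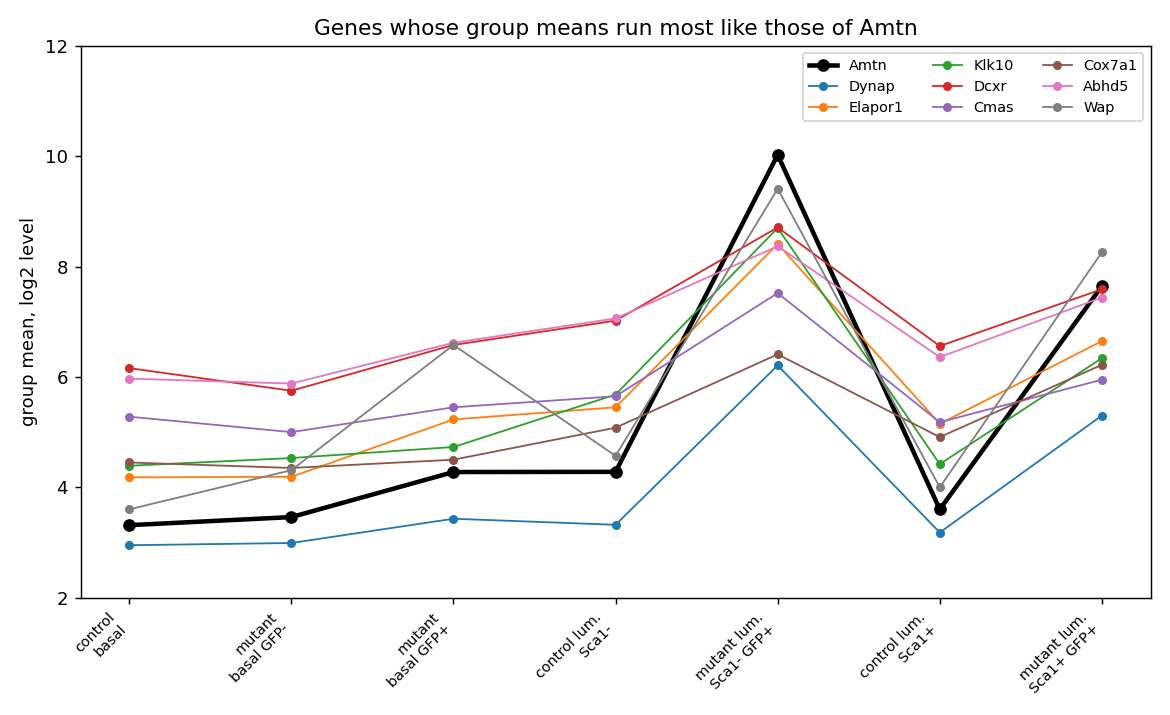
Mean log2 level (y axis) of Amtn (black) and of the 8 genes with the highest Pearson correlation to it over the 7 sorted groups (x axis); lines join the means of 1 gene and carry no order in time. All peak in mutant Sca1-negative luminal cells, where Amtn is at 10.03 and Dynap at 6.21.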

How the data were processed

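Mammary epithelial cells were profiled on 20 Affymetrix arrays in 7 groups. The authors deposited 1 log2 value for each probe set and array, and these were used. Per the submitters' processing notes the affy package was used; its version, the normalization, filters and the genome build are not given in the sources used here. No further normalization was applied. Of 34760 probe sets, 21640 had a single symbol in the platform table, 1321 had several and 11799 were not listed; only the first were used, keeping the probe set of highest mean for each of 954 genes with more than 1. By gene number 21553 were found in RefSeq, and 0 symbols changed.

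The 7 group means were estimated in one model over all 20 arrays, using lmFit and eBayes of limma 3.58.1 (R 4.3.3). A gene counted as called where its p-value, after Benjamini-Hochberg adjustment over 19937 genes in each comparison, was under 0.05. The procedure was also run on simulated data with independent noise for each gene and array, which says nothing of arrays that share mice. There were 3 independent sortings, but the labels do not say that a replicate number marks a shared sorting. Arrays were therefore treated as independent, although gates of 1 genotype can share pools of mice. The p-values measure the spread between arrays. The number of arrays limits precision. Members, gene lists and tests were chosen with earlier results of these data known. The rule for named genes took the members, called list genes (up to 6 a list by size of difference) and the 8 genes most like any member whose group means span at least 2. Not every called marker gene is named, and uncalled genes (such as Mmp20, Klk4, Fam20c, Prol1, Jchain and Lamb3) were added for role, position or contrast after their values were seen. Alternatives were array weights, a replicate block, another prior, further normalization, a filter on low values, another probe set rule, fits of fewer groups and leaving out each array.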

Additional observations from a re-analysis of the deposited data

Results flagged for a closer look

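Some mutant effects differed in size between GFP-positive basal and Sca1-negative luminal cells. By limma's interaction test this was called for 3 genes of the family, enamel and neighbour lists, where 1.55% of all genes were called. Of the cell type markers, Pgr, Foxa1 and Dcn were called too. The mutant-minus-control difference was more positive in basal cells by 2.52 for Sparcl1 (adjusted p = 0.0316), which rose in both. For Msx2 it was more positive by 1.74 (adjusted p = 0.0104), with differences of 0.11 in basal and -1.63 in luminal cells. For Lama3, a laminin chain gene of epithelial basement membranes, it was more positive by 1.0 (adjusted p = 0.0442), with 0.51 in basal and -0.48 in luminal cells, neither called. The Sparcl1 call was lost under 11 of 20 alternatives and the Lama3 call under 15 of 20, while the Msx2 call held in all 20 (adjusted p 0.00466 to 0.0352).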

How the results depend on the processing

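The Amtn differences without a test kept their sign in all 108 combinations of comparison and alternative, and moved by less than the largest within-group SD of the groups compared. They ranged from 5.55 to 6.05 in Sca1-negative luminal cells, 3.50 to 4.58 in Sca1-positive luminal cells and 0.74 to 1.10 in GFP-positive basal cells. Without the 2 arrays of narrower spread, taken 1 at a time, the last became 1.05 (GFP-positive basal replicate 2) and the Sca1-positive difference 4.02 (control replicate 2). The filter on low values (mean above 3.83) kept 1 of the 4 members, so the other 3 have no value there. In 420 combinations Odam, Ambn and Enam were called 0 times by limma (lowest adjusted p = 0.317, differences from -0.47 to 0.34); the fit of only the groups compared and array weights are among these.

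The control Sca1-negative luminal against basal difference of Amtn (0.97) passed the threshold in the planned limma fit, but the choice of Amtn drew on these arrays, so the call supports nothing. It was lost with array weights (0.97), in the fit of only these arrays (0.97), without any 1 control basal array and without control Sca1-negative luminal replicate 1. The difference ranged from 0.66 to 1.16 when 1 array was left out. With the replicate number as a block, no call of a member changed. The numbers are not known to pair arrays: same-number arrays of different groups had deviations correlated at -0.05 to 0.22 (5 of 57 pairs over 0.1), and 15 of 20 arrays correlated best with one of their own number. Block estimates of the Amtn difference were 5.75 and 4.03 in the Sca1-negative and Sca1-positive luminal gates.

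Counts of called genes stayed within 1.5 times in 132 of 150 combinations. With array weights, 378 became 819 (Sca1-negative luminal), 45 became 75 (Sca1-positive luminal), 32 became 10 (GFP-negative basal), 152 became 231 (control luminal gates) and 28 became 72 (luminal interaction). Fitting only the groups compared gave 12 (Sca1-positive luminal), 276 in place of 843 (GFP-positive basal), 134 in place of 648 (GFP-positive against GFP-negative basal), 43 (control luminal gates) and 0 (GFP-negative basal, limma, with 1362 at an unadjusted p under 0.05). Without 1 array, counts moved to 248 (mutant replicate 3) and 249 (control replicate 1) in Sca1-negative luminal cells, 19 (mutant replicate 3) in Sca1-positive luminal cells, 63 (GFP-negative replicate 3) in GFP-negative basal cells, 82 and 83 (control Sca1-negative replicates 1 and 3) between control luminal gates, and 45 and 46 (control and mutant Sca1-positive replicate 1) in the luminal interaction. The causes were not tested. Signal near the floor limits what can be said of Odam, Ambn and Enam.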
